A study of Mus musculus with 6 samples.

Results

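Plagl1 is a zinc finger transcription factor, and it was examined here together with 9 other imprinted genes that set growth, namely H19, Igf2, Cdkn1c, Grb10, Mest, Peg3, Peg10, Dlk1 and Igf2r. The members were the non-control probes of the array whose transcript accession a current RefSeq table gives to 1 of these 10 genes, which gave 10 of 21368 named genes and 18 of 55681 probes. Plagl1 had 4 probes, Mest had 3, Peg3, Peg10 and Dlk1 had 2 each, and the other genes had 1 each. The set was chosen by the log2 ratios of Plagl1 in the Sox11 knockout, which were known to be low on some of its probes, so Sox11 knockout values and counts of calls are given below only as a description, with no p-value and nothing read from them.

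RNA came from primary keratinocytes of the skin of newborn mice on a mixed 129SvEx:C57BL/6 background. Floxed Sox4 (Sox4 cKO), floxed Sox11 (Sox11 cKO) or both (dcKO) had been deleted with a Krt14-Cre transgene, which acts in basal epidermal cells and their descendants, and each knockout was compared with wild-type keratinocytes. The study's methods describe a floxed stock that also lacked Sox12, crossed to Krt14-Cre mice of the FVB/N strain, and the Sox12 genotype of the cells is not given in the labels. Neither Cre nor floxed alleles are named in the labels of the wild-type cells, and the ages of individual pups are not given there. Each genotype had 2 biological replicates, and a replicate was 1 array that carried the knockout in 1 dye and the wild type in the other. The knockout was in Cy5 on replicate 1 and in Cy3 on replicate 2, so dye and replicate number cannot be told apart. The cells had first been grown on J2 feeder fibroblasts and then without them for several passages.

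Genomic imprinting marks a gene by DNA methylation in the egg or sperm, so that the copy from only 1 parent is transcribed. Many paternally expressed genes, such as Igf2, Mest, Peg3 and Dlk1, promote growth, and many maternally expressed genes, such as Cdkn1c, H19, Grb10 and Igf2r, restrain it. PLAGL1 is itself paternally expressed and is known as a regulator of other imprinted genes in this network. Array probes measure the sum of both parental copies and do not tell which copy was read.

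The promoters of Plagl1 and Mest are shown because these genes had the largest falls among the members measured in the Sox11 cKO and dcKO respectively. The windows run from 250 bases before to 50 bases after a RefSeq transcription start on GRCm38.p6, and capitals mark CG dinucleotides, the bases that carry DNA methylation.
Plagl1, chr10:13090582-13090881, plus strand: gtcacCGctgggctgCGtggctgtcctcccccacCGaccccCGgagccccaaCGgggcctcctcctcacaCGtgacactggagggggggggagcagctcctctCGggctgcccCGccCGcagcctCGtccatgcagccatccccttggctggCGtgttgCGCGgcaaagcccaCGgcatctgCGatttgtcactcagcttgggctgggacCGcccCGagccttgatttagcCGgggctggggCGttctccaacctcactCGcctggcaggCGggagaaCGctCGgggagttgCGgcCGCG
Mest, chr6:30737800-30738099, plus strand: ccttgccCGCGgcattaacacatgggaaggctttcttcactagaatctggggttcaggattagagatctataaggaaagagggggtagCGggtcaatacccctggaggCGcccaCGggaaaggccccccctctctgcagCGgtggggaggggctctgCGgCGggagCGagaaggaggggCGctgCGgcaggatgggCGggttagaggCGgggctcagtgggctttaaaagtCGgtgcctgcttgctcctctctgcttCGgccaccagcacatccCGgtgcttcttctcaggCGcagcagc
The Plagl1 window held 26 CG dinucleotides and this Mest window held 17, against a median of 7 over the 32851 promoter windows of the mouse genome. Over the 13 windows found for 7 of the 10 genes the median was 14, with a range from 2 in Igf2 to 45 in Grb10. H19, Cdkn1c and Peg10 were not in the promoter table. Windows were searched on both strands for GGGGCCCC, a core that PLAGL1 binds, and for ACAAAG and ACAAT, cores that SOX proteins bind. GGGGCCCC was in 1 member window, that of Peg3, and in 1.08% of all windows. ACAAAG was in 0 member windows and 18.7% of all windows, and ACAAT was in 2 member windows and 31% of all windows. Such letter matches say nothing of whether a factor binds there.

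Levels below are log2 normalised intensities of 1 channel, and differences are log2 ratios of knockout over wild type on the same array. Values of a probe are compared only with other values of that probe. A probe was called when its Benjamini-Hochberg adjusted p from limma was under 0.05 and its absolute log2 fold change was over 1.5. Of the 18 member probes, 13 were well above background on at least 1 of the 12 channels, 9 on at least 6, and 5 on none. Calls were made for 0 member probes in Sox4 cKO, where 0.14% of all probes were called. In Sox11 cKO 2 of 18 were called against 0.0862% of all probes, and since this contrast chose the members nothing is read from that share. In dcKO 3 of 18 were called, 2 of Mest and 1 of Cdkn1c, against 0.756% of all probes. The test of dcKO minus Sox4 cKO called 1 of 18, that of Cdkn1c, against 0.562% of all probes.
At an unadjusted p under 0.05, 3 member probes passed in Sox4 cKO, 10 in dcKO and 6 in the difference, against 7.40%, 13.0% and 12.1% of all probes. The plot of log2 ratios of all probes sets the 6 arrays side by side.

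**Figure D1:**
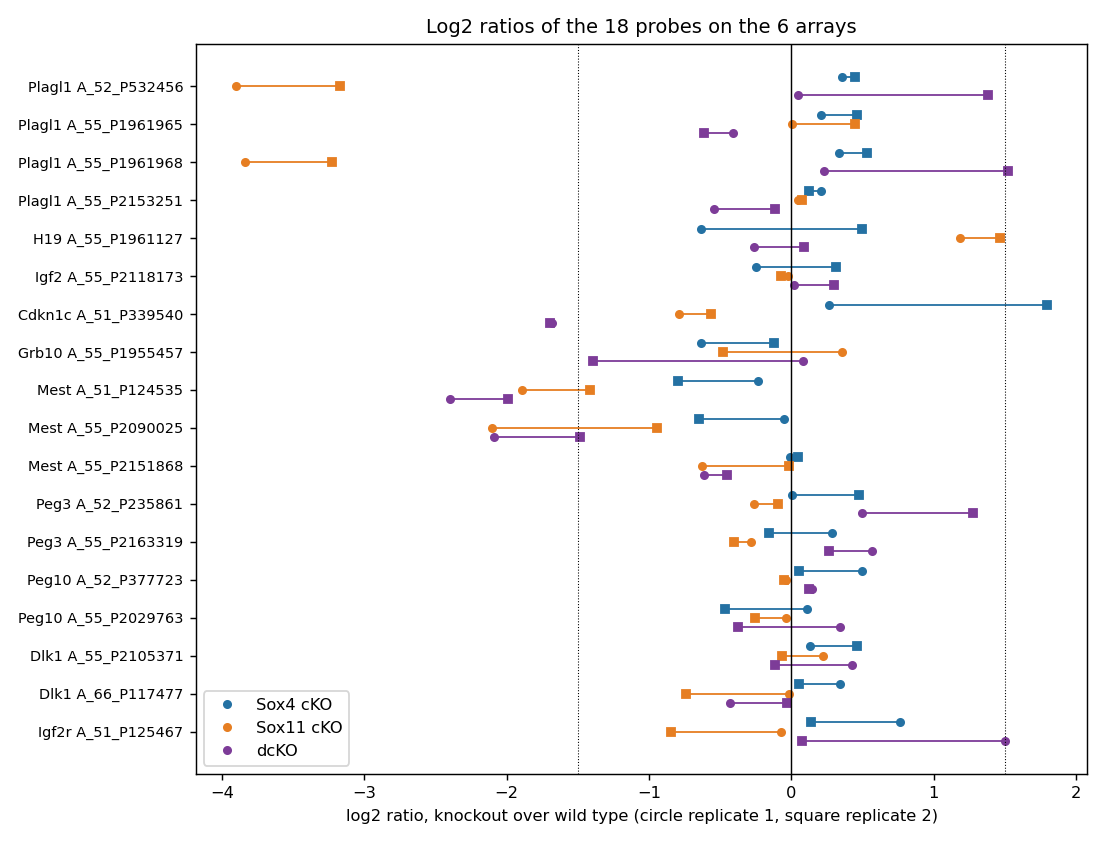
Log2 ratios of knockout over wild type for each of the 18 probes (rows), with replicate 1 as a circle, replicate 2 as a square and a line joining the 2 arrays of a genotype; dotted lines stand at the fold limit of 1.5. One pair of Plagl1 probes lies below -3 in Sox11 cKO only, and 2 Mest probes and the Cdkn1c probe lie near or beyond -1.5 on both dcKO arrays.

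The targeted genes were checked first. Sox4 was lower by a log2 value of -2.52 ± 0.04 (SD, n = 2) in Sox4 cKO and Sox11 by -2.98 ± 0.47 in Sox11 cKO. In dcKO Sox4 had a log2 fold change of -2.52 (limma adjusted p = 0.00106) and Sox11 had a log2 fold change of -3.43 ± 0.51 (limma adjusted p = 0.00664). Sox11 ratios in Sox4 cKO averaged -0.07 ± 1.26. All 10 keratinocyte markers were well above background on at least 6 channels. Of 12 fibroblast markers 2 were, while 5 of them, among them Col1a1, Col3a1 and Pdgfrb, were above background on 0 channels. The share of probes above background ran from 35.1% to 42.8% in knockout channels and from 37.3% to 45.0% in wild-type channels. All 6 arrays lay on 1 slide.

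Plagl1 fell into pairs of probes that behaved differently. On probe A_52_P532456 the Sox11 cKO ratios were -3.90 and -3.17, a mean of -3.54 ± 0.51 (SD, n = 2). On probe A_55_P1961968 they were -3.84 and -3.23, a mean of -3.53 ± 0.43. The Sox11 cKO channel was not well above background on either array for this pair, at levels of 4.54 and 4.55 for the first probe and 4.56 and 4.70 for the second, while the wild type stood at 8.43 and 7.72 and at 8.39 and 7.92. Measured against the lowest signal well above background, the level was at least 8.42-fold lower on the first probe and at least 8.90-fold lower on the second. The log2 values depended on the background correction, at -2.45 and -2.48 with an offset of 50 and -6.21 and -6.18 with the scanner software's processed signals.
The other probes gave no such fall. Probe A_55_P1961965 had Sox11 cKO ratios of 0.00 and 0.45, and A_55_P2153251 had 0.05 and 0.08. These probes were above background in both channels of both Sox11 cKO arrays, but dim. They read 5.69 to 6.14 there, where the lowest signals well above background were 4.91 to 5.03. Their levels moved little over the whole series, from 5.69 to 6.52 on A_55_P1961965 and from 5.43 to 6.15 on A_55_P2153251. Over the 12 channel levels, which share arrays and RNA between neighbours, the falling probes correlated with each other at r = 0.996 and with the other pair at -0.14 to 0.41. Which exons or transcripts the probes read was not analysed here.

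In Sox4 cKO and dcKO the same pair had ratios above 0 on every array. A_52_P532456 had ratios of 0.36 and 0.44 in Sox4 cKO, from levels of 9.51 and 9.35 in the knockout and 9.15 and 8.91 in the wild type. In dcKO its ratios were 0.05 and 1.38, a mean of 0.72 ± 0.94 (limma adjusted p = 0.181). A_55_P1961968 had 0.33 and 0.53 in Sox4 cKO, and 0.23 and 1.52 in dcKO (mean 0.88 ± 0.91, limma adjusted p = 0.0874). Both mean values were above 0 in both genotypes without a call. With no dye term in the fit, the dcKO limma adjusted p was 0.501 on A_52_P532456 and 0.319 on A_55_P1961968. The difference of dcKO minus Sox4 cKO was 0.32 (95% interval -0.40 to 1.03) on A_52_P532456 and 0.44 (-0.22 to 1.11) on A_55_P1961968.
The pair of dcKO arrays was unlike. On dcKO replicate 1 both channels of A_52_P532456 were low, at 5.51 in the knockout and 5.46 in the wild type, whereas replicate 2 read 9.94 and 8.56. A_55_P1961968 read 5.95 and 5.72 on replicate 1 and 10.20 and 8.68 on replicate 2. The wild-type level thus ran from 5.46 to 9.15 over the 6 arrays on the first probe, and this range of 3.69 was wider than that of 98.6% of the 22758 probes above background, whose median range was 0.82. Its range on A_55_P1961968 was at the 97.9th percentile, and those of A_55_P1961965 and A_55_P2153251 at 50.9 and 6.66. Without dcKO replicate 1 the dcKO log2 fold change was 1.18 on A_52_P532456 (adjusted p = 0.223) and 1.32 on A_55_P1961968 (adjusted p = 0.152). Without replicate 2 these were 0.25 (adjusted p = 0.853) and 0.43 (adjusted p = 0.676).
The flatter pair had ratios of -0.41 and -0.61 on A_55_P1961965 and of -0.54 and -0.12 on A_55_P2153251 in dcKO (limma adjusted p = 0.219 and 0.458).

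**Figure D2:**
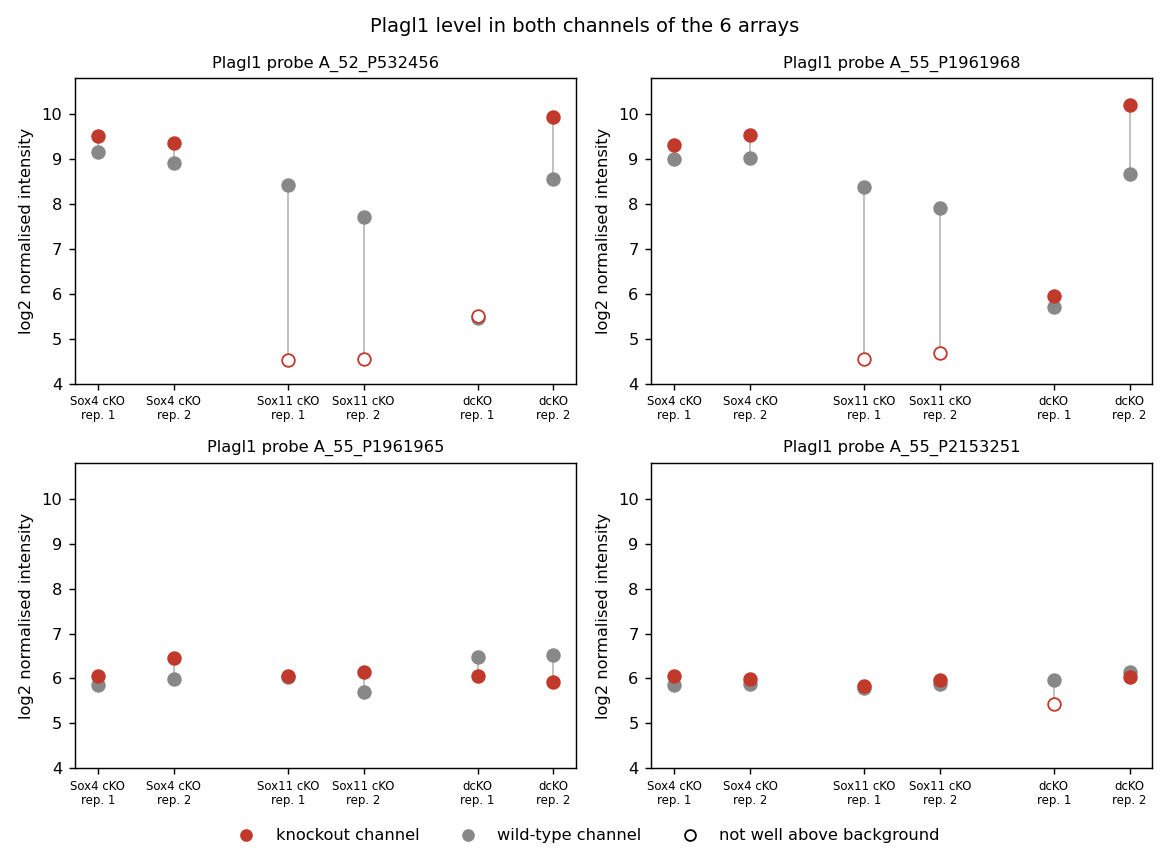
Log2 normalised intensity (vertical axis) of the 4 Plagl1 probes in the knockout (red) and wild-type (grey) channel of each array, with open points not well above background. The upper probes drop to between 4.54 and 4.70 in the knockout channel, not the wild-type channel, of both Sox11 cKO arrays. They are low in both channels of dcKO replicate 1, and the lower probes stay between 5.43 and 6.52.

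Genes whose channel levels most resembled A_55_P1961968 over the 12 channels, among 12002 genes, were Klf4 at r = 0.892, Stard13 at 0.886, Sh3d21 at 0.886 and Fam220a at 0.880. Klf4 encodes a transcription factor of the upper epidermis. Among the other imprinted members Cdkn1c had 0.515, Mest 0.507, Igf2r -0.13 and H19 -0.64. These values include the Sox11 cKO arrays that chose the set, and without their channels, an alternative added after the data were seen, Cdkn1c had 0.565, Mest 0.132, Igf2r 0.467 and H19 -0.49, so that Igf2r turned sign. The values over all arrays rest on 12 channels of 6 arrays, and 4 of these channels were low for Plagl1.
The relatives of Plagl1 were followed too. Plagl2, a paralogue that also encodes a zinc finger activator, had log2 fold changes of 0.31, 0.33 and -0.36 in Sox4 cKO, Sox11 cKO and dcKO, none called. Plag1 had 0.06, -0.73 and 0.14, none called, and was above background on 3 channels.

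Mest, which encodes a hydrolase-like protein of the endoplasmic reticulum and is named for mesoderm, was lower in dcKO. Its probe A_51_P124535 read 5.82 and 5.84 in dcKO against 8.21 and 7.83 in the wild type of the same arrays. The ratios were -2.40 and -1.99, a mean of -2.19 ± 0.29 (SD, n = 2, limma adjusted p = 0.00458), a 4.57-fold lower level, with the knockout channel well above background on 1 of the 2 arrays. In Sox11 cKO the ratios were -1.89 and -1.41, from 6.19 and 5.46 against 8.08 and 6.88. In Sox4 cKO they were -0.24 and -0.80, a mean of -0.52 ± 0.40 (limma adjusted p = 0.646). The difference of dcKO minus Sox4 cKO was -1.68 (95% interval -2.36 to -0.99, limma adjusted p = 0.0645), and was not called. The Sox11 cKO value was set beside the others without a test.
This probe is printed 10 times on each array, of which 9 or 10 spots were kept. Ratios of spots on 1 array had SDs of 0.054 to 0.22, and the lowest and highest spots were -2.80 and -2.11 on dcKO replicate 1 and -2.24 and -1.74 on dcKO replicate 2. The spread between spots was therefore below that between replicates, whose SD was 0.29 in dcKO.
A_55_P2090025, the next Mest probe, had dcKO ratios of -2.09 and -1.48, a mean of -1.79 ± 0.43 (limma adjusted p = 0.0246). Its dcKO channel was not well above background on either array, at 5.55 and 5.41, and the level was 3.45-fold lower. That probe's own signals exceeded the lowest ones well above background there, 5.44 and 4.91, so this is the observed fold, not a lower limit. Its Sox11 cKO ratios were -2.10 and -0.94, and those in Sox4 cKO were -0.05 and -0.65. The last Mest probe, A_55_P2151868, was above background on 3 channels, and its dcKO ratios were -0.61 and -0.45 (limma adjusted p = 0.181). Without dcKO replicate 1 the log2 fold change of A_51_P124535 was -1.97 and its adjusted p 0.132, and without replicate 2 they were -2.42 and 0.0806, so that neither array alone gave a call. The same held for A_55_P2090025 at -1.62 (adjusted p = 0.313) and -1.95 (adjusted p = 0.258). With an offset of 50 in the background correction A_51_P124535 had -1.61 (adjusted p = 0.0742), and from the scanner software's processed signals -3.39 (adjusted p = 0.193), so both settings ended the call but not the direction. For A_55_P2090025 these values were -1.19 (adjusted p = 0.165) and -4.06 (adjusted p = 0.167).

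**Figure D3:**
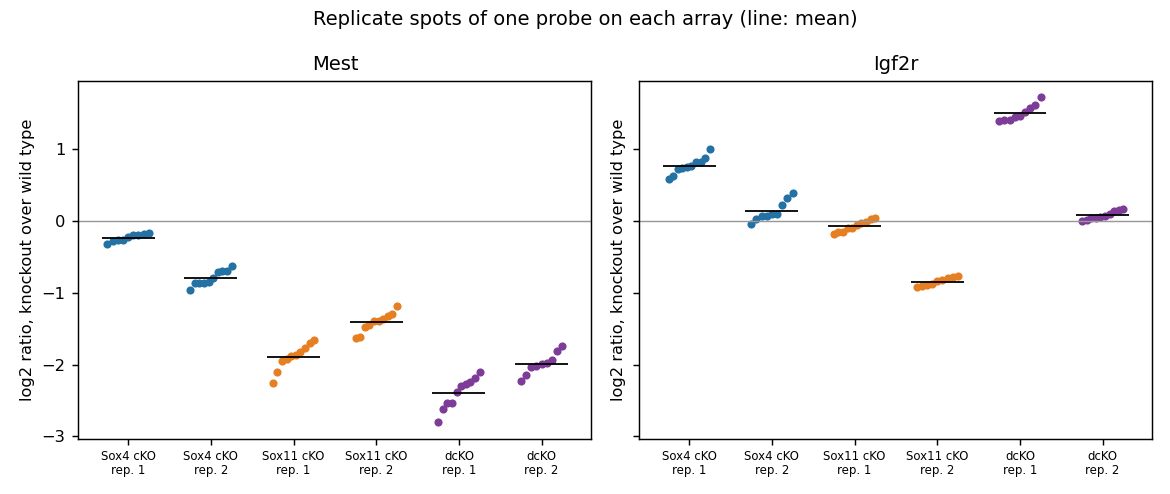
Log2 ratios of knockout over wild type for the replicate spots of the Mest probe A_51_P124535 and the Igf2r probe A_51_P125467 on each array (points), with the mean of the spots as a line. Spots of 1 array lie close together, while arrays of 1 genotype differ by more, as in Igf2r on the dcKO arrays with means of 1.5 and 0.07.

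Cdkn1c encodes p57, an inhibitor of cyclin-dependent kinases. Its probe A_51_P339540 was lower in dcKO, at 5.40 and 7.42 against 7.09 and 9.12 in the paired wild type. The ratios were -1.68 and -1.69, a mean of -1.69 ± 0.01 (SD, n = 2, limma adjusted p = 0.0246), with the knockout channel not well above background on replicate 1. On replicate 2 the knockout lay above the wild type of replicate 1. In Sox4 cKO the ratios were 0.26 and 1.79, a mean of 1.03 ± 1.08 (limma adjusted p = 0.384). The Sox11 cKO ratios were -0.79 and -0.56. The dcKO value was lower than that of Sox4 cKO by a log2 difference of -2.72 (SE 0.37, 95% interval -3.57 to -1.86, limma adjusted p = 0.0301).
The wild-type level of Cdkn1c ran from 6.62 to 9.69 over the arrays, a range wider than that of 97.4% of probes above background. It was lowest on Sox4 cKO replicate 2, the array with the ratio of 1.79. Leaving out that array took the dcKO minus Sox4 cKO difference to -2.0 (adjusted p = 0.108). The dcKO call was lost without either dcKO array, at -2.13 (adjusted p = 0.142) without replicate 1 and -1.25 (adjusted p = 0.377) without replicate 2. It was also lost with an offset of 50 (-1.30, adjusted p = 0.168), with processed signals (-3.12, adjusted p = 0.223) and without the dye term, which is the replicate block (-1.69, adjusted p = 0.0625). The difference from Sox4 cKO had adjusted p-values of 0.169, 0.324 and 0.0821 in these settings and 0.0540 with dim probes left out.
Genes that share the imprinted domain of Cdkn1c or Mest, chosen for their place after their values were seen, were not called. Phlda2, a placental growth restrainer beside Cdkn1c, had a dcKO log2 fold change of -0.51 (limma adjusted p = 0.238). Slc22a18 had -0.30 (limma adjusted p = 0.591) and Kcnq1ot1, the long RNA of that domain, -0.35 (limma adjusted p = 0.806). Copg2, which overlaps Mest, had -0.07 (limma adjusted p = 0.951). All were picked from a list of 48 other imprinted genes, of which 15 were lower and 14 higher on both dcKO arrays. Nothing is read from the sign that the picked genes share.

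H19, a non-coding RNA transcribed beside Igf2, and the receptor gene Igf2r also differed between arrays. H19 had ratios of 1.19 and 1.47 in Sox11 cKO, a mean of 1.33 ± 0.20, from 8.98 and 7.26 in the knockout and 7.79 and 5.79 in the wild type. It was above background in both channels of these arrays. Elsewhere it was above background on 2 of 8 channels, both of the wild type, and its ratios were -0.64 and 0.50 in Sox4 cKO and -0.26 and 0.09 in dcKO (limma adjusted p = 0.968 and 0.932). The wild-type range, 4.77 to 7.79, exceeded that of 97.3% of probes above background.
Igf2r, the receptor that clears IGF2, was above background on 12 of 12 channels. Probe A_51_P125467 had dcKO ratios of 1.5 and 0.07, a mean of 0.79 ± 1.01 (limma adjusted p = 0.0846), and Sox4 cKO ratios of 0.76 and 0.14 (limma adjusted p = 0.645). With no dye term in the fit, its dcKO limma adjusted p was 0.512. In Sox11 cKO the ratios were -0.07 and -0.85. The high dcKO ratio came from replicate 1, where the wild type read 7.39, its lowest of the 6 arrays, and the knockout 8.89. Without that array the dcKO log2 fold change was 0.43 (adjusted p = 0.649), and without replicate 2 it was 1.15 (adjusted p = 0.190).

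**Figure D4:**
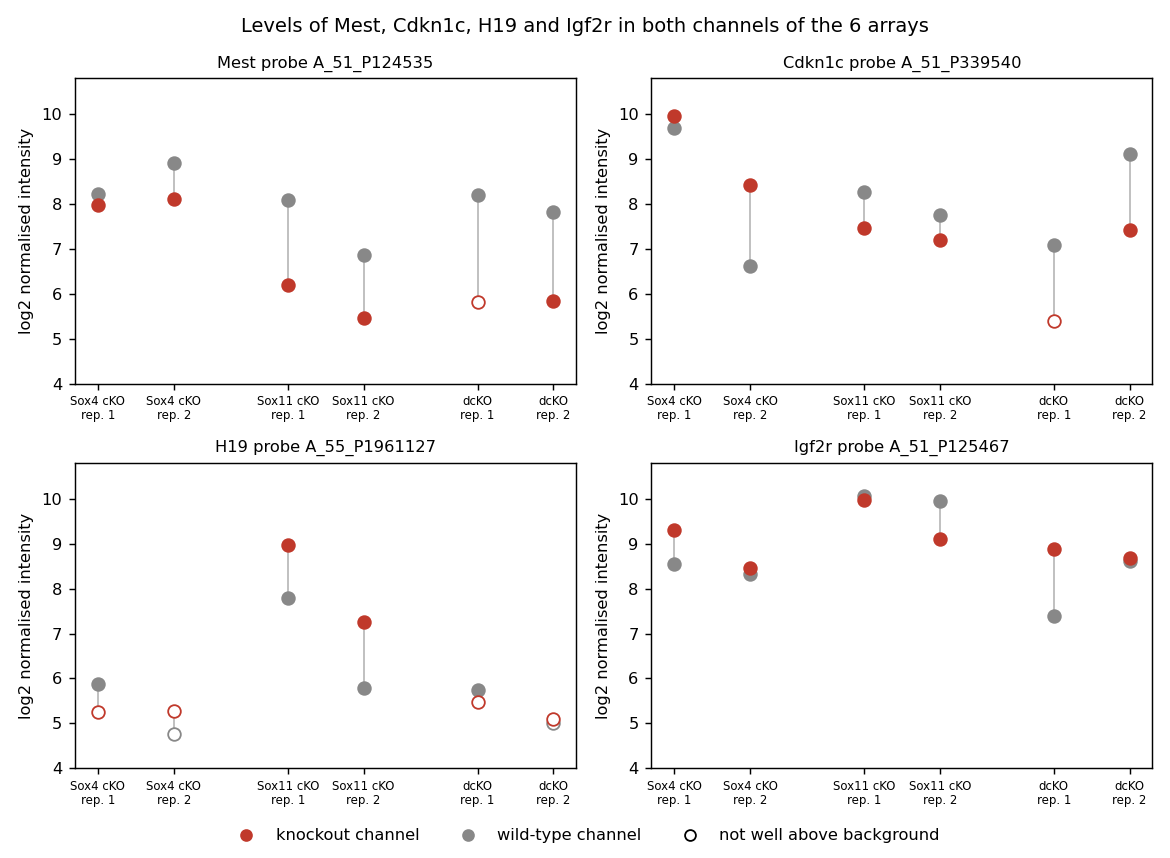
Log2 normalised intensity (vertical axis) of Mest, Cdkn1c, H19 and Igf2r in the knockout (red) and wild-type (grey) channel of each array, with open points not well above background. Mest is lower in the knockout channel on all 6 arrays and by most on the dcKO arrays, and the wild-type points of Cdkn1c and H19 spread over about 3 log2 units.

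The remaining members were at or near background. Igf2, the fetal growth factor, was above background on 0 of 12 channels, with levels between 4.61 and 5.26. Both Peg10 probes, of a retrotransposon-derived gene, and 1 probe each of Peg3 and Dlk1 were also above background on 0 channels. Dlk1, which encodes a membrane protein of the Notch ligand type, had its other probe above background on 1 channel. Grb10, an adaptor that dampens insulin and IGF signalling, was above background on 3 channels and had dcKO ratios of 0.08 and -1.39 (limma adjusted p = 0.428).
Peg3 encodes a zinc finger protein, and its probe A_52_P235861 was above background on 4 channels. Its dcKO ratios were 0.49 and 1.28, a mean of 0.89 ± 0.56. Its limma adjusted p of 0.0440 was under 0.05, as for 2.06% of all probes, but the fold limit was not passed.

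Other genes of these pathways were taken from lists, each at its brightest probe. In that selection 0.159% of genes were called in Sox4 cKO, 0.178% in Sox11 cKO and 1.39% in dcKO. Of 48 other imprinted genes, 0 were called in any genotype, and their median log2 fold changes were -0.02, -0.05 and -0.04, beside 0.004, -0.004 and -0.01 over all genes. Of these 48, 27 were above background on at least 6 channels. Sfmbt2, a Polycomb-type gene named after its values were seen, had ratios of 1.18 and 5.05 in Sox11 cKO and of 1.49 and 2.23 in dcKO (dcKO mean 1.86, limma adjusted p = 0.225).
Of 19 genes of the IGF pathway, 1 was called, in dcKO. Irs1, the adaptor that carries the signal from the IGF and insulin receptors, had log2 fold changes of -2.04, -2.20 and -2.82 in Sox4 cKO, Sox11 cKO and dcKO (dcKO limma adjusted p = 0.00946; Sox4 cKO limma adjusted p = 0.105). The receptor Igf1r had -0.06, 0.13 and -0.51 and was not called. The binding protein gene Igfbp2, named after its values were seen, had ratios of -1.73 and -0.70 in Sox4 cKO, -3.59 and 0.79 in Sox11 cKO, and 2.76 and 2.84 in dcKO (dcKO mean 2.80, limma adjusted p = 0.0724). The median of the list was -0.02, 0.11 and -0.07.
Of 14 cyclin-dependent kinase inhibitors and cell cycle arrest genes, 1 was called, in dcKO. Cdkn2b, which encodes the inhibitor p15, was higher in dcKO with a log2 fold change of 2.06 (limma adjusted p = 0.0480), opposite in direction to Cdkn1c. Ccnd1, named after its values were seen, encodes cyclin D1 and had -1.26 in dcKO (limma adjusted p = 0.0192), inside the fold limit, and -1.97 in dcKO minus Sox4 cKO (limma adjusted p = 0.0271), which was called. The list medians were -0.02, -0.11 and -0.07.

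**Figure D5:**
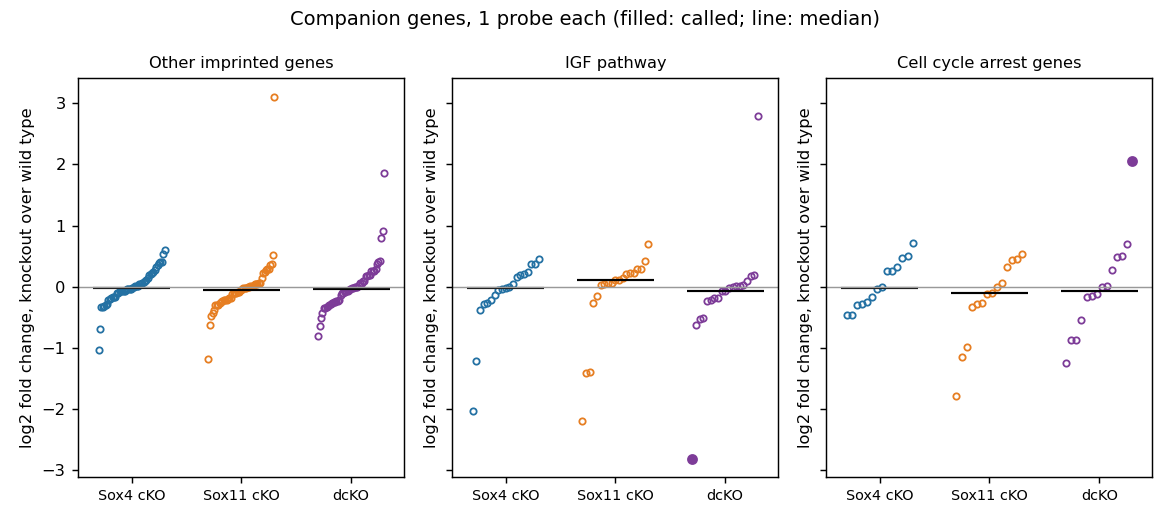
Log2 fold change of knockout over wild type (vertical axis) of the 48 other imprinted genes, 19 IGF pathway genes and 14 cell cycle arrest genes in the 3 genotypes, with 1 point per gene, filled where called, and a line at the median. Medians lie close to 0 in every list, and the filled points are Irs1 below and Cdkn2b above 0 in dcKO.

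Some marker genes of other cells also differed between knockout and wild type. Summed linear intensity of the 12 fibroblast markers was 449.5 to 746 in dcKO against 909.5 to 4734 in the paired wild type. Fn1, which keratinocytes also make, was called lower at -3.97 (limma adjusted p = 0.00287). Such sums rest largely on Fn1 and on signals near background. The mean level over the channels was 10.2 for Fn1, 5.78 for Col1a2 and 5.72 for Vim, and lower for the rest. The list did not move as 1 in dcKO, since 4 of the 12 genes were lower and 3 higher on both arrays, and the median over the list was 0.05 on the log2 scale. The collagen genes Col6a1, Col6a2 and Col1a2, named after their values were seen, had 1.22, 0.68 and 0.43, none called. Col6a1 had dcKO ratios of 0.17 and 2.26 and Col6a2 0.08 and 1.29, so both means came mainly from replicate 2. They were above background on 2 and 5 channels. In Sox11 cKO the sum was 723 to 1073 against 1155 to 2249, and in Sox4 cKO 2543 to 5241 against 3345 to 24247. Vim, which encodes the mesenchymal filament vimentin, was called lower in Sox4 cKO at -2.27 (limma adjusted p = 0.0337). It was above background on only 4 channels, among them both wild-type channels of the Sox4 cKO arrays. Keratinocyte marker sums overlapped between knockout and wild type in each genotype, and 1 of the 10 markers, the basal keratin gene Krt15, was called, lower in Sox4 cKO at -1.58 (limma adjusted p = 0.0245). Krt18, a keratin of simple epithelia and Merkel cells, was called lower in dcKO at -4.03 (limma adjusted p = 0.000800). Of the 5 Merkel cell markers, 2 were lower and 1 higher on both dcKO arrays. The higher gene, Krt20, had 1.21 (limma adjusted p = 0.0336), inside the fold limit, and was above background on 4 channels. Atoh1 and Isl1 were above background on 0 channels. Of the melanocyte, immune and endothelial markers, 0 were called in any genotype. Mest is known to be transcribed in mesenchymal cells, and the part of RNA from such cells in its lower dcKO level was not tested. In bulk RNA fewer cells of a type and less RNA per cell cannot be told apart.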

How the data were processed

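Total RNA from knockout and wild-type keratinocytes was labelled with Cy3 and Cy5 and hybridised to 2-colour Agilent mouse arrays, 6 in all. Agilent Feature Extraction 11.0.1.1 made the spot intensities that the authors deposited, of which the median signals and background were used. The authors also deposited a table of normalised log2 ratios, whose direction and scale were found by setting it against the scanner ratios (r from 0.890 to 0.952, with column medians from -0.007 to 0.005 after turning all to knockout over wild type). It served as an alternative here.

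Intensities were background corrected by normexp with an offset of 16, control spots were left out, and non-uniform or population outlier spots (194 to 288 per array) were set missing. Ratios were loess normalised within each array, spots of a probe were averaged, and ratios were turned to knockout over wild type. With limma 3.58.1 in R 4.3.3, a fit over 55681 probes and all 6 arrays held 3 genotype effects and a dye effect, with 2 residual degrees of freedom. P-values were adjusted by the Benjamini-Hochberg method over all probes. Levels were taken per channel after loess and scaling of average intensity between arrays (Aquantile). An array's precision is limited by the number of arrays, and counting intervals do not apply. The fold change is on the scale of the offset signal and understates the change of dim probes. "At least" folds set the bright group's mean over the dim group's mean of, per array, the higher of the lowest signal well above background and the probe's own signal. The labels do not say whether each array had its own wild-type culture, so p-values measure the spread between these arrays only. That spread is what is left after the dye effect, the same as a shared replicate difference, is taken out.

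Symbols came from RefSeq transcript accessions, which named 28331 of 29786 probes with such an accession. Probes whose older accession the table does not hold were not named, so a gene may have further probes, not analysed here. Promoters came from RefSeq on GRCm38.p6. The genes and lists were chosen with earlier results of these data known. All member probes are named, with companion genes where called, Plag1, Plagl2 and Igf1r, and the 5 genes most like the brightest Plagl1 probe, of which 1 is not reported here. Same-numbered arrays deviated together (r = 0.125 to 0.316 between genotypes), and the number is the dye orientation, which the fit holds. The fit was tested on simulated data.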

Additional observations from a re-analysis of the deposited data

Results flagged for a closer look

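Among the 6 wild-type channels, the Plagl1 probe A_55_P1961968 had 1 level far below the others, 5.72 on dcKO replicate 1 against 7.92 for the next, a gap of 0.669 of the whole range. H19 had 1 wild-type level far above the others, 7.79 on Sox11 cKO replicate 1 against 5.88 for the next, a gap of 0.632 of the range. Chance alone marks about 1 in 20 such groups.

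For some probes the ratios of one genotype lay on one side of 0 on every array and those of another on the opposite side. With 2 arrays per genotype such a split can arise by chance, and its share over all probes was not computed. Some of these ratios were close to 0. On A_55_P1961965 a Sox11 cKO ratio was 0.00, and on Igf2r a Sox11 cKO ratio was -0.07 and a dcKO ratio 0.07. On Plagl1 probe A_52_P532456 the log2 difference of Sox11 cKO minus Sox4 cKO was -3.94 and that of dcKO minus Sox11 cKO was 4.25. On A_55_P1961968 these differences were -3.96 and 4.41. The other Plagl1 probes gave dcKO minus Sox11 cKO differences of -0.74 on A_55_P1961965 and -0.39 on A_55_P2153251. Cdkn1c gave -1.70 for Sox11 cKO minus Sox4 cKO, and Igf2r gave -0.91 for Sox11 cKO minus Sox4 cKO and 1.25 for dcKO minus Sox11 cKO. None of these differences that involve Sox11 cKO was tested. The Cdkn1c difference of dcKO minus Sox4 cKO, -2.72, was tested and called.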

How the results depend on the processing

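With 2 arrays per genotype, member calls depended on the settings. An offset of 50 and the Feature Extraction processed signals each gave 0 member calls in Sox4 cKO, Sox11 cKO, dcKO and dcKO minus Sox4 cKO. At an unadjusted p under 0.05 the processed signals still passed 2 member probes in Sox4 cKO, 11 in dcKO and 9 in the difference. Over all probes, calls in Sox4 cKO, Sox11 cKO, dcKO and the difference went from 78, 48, 421 and 313 to 3, 0, 78 and 0 at an offset of 50 and to 0 in each with processed signals. Without dcKO replicate 1 or 2 the dcKO count was 125 or 121. The authors' table of ratios gave 4 in Sox11 cKO and 2 in the difference. The difference also gave 2 with median centring, with the dye effect subtracted before the fit and with only the arrays compared, and 0 with dim probes filtered out. With no replicate block (no dye term) the difference gave 0, Sox11 cKO 2 and dcKO 2. Leaving out 1 array gave 0 to 0 calls in Sox4 cKO, 2 to 4 in Sox11 cKO, 0 to 3 in dcKO and 0 to 2 in the difference. Calls in dcKO were 0 without dcKO replicate 1 or without replicate 2. In the difference they were 0 without Sox4 cKO replicate 2 or either dcKO array and 2 without either Sox11 cKO array. In Sox11 cKO they were 4 without Sox11 cKO replicate 2 and 3 without either Sox4 cKO array. Without a fold limit dcKO gave 4. Cdkn1c in dcKO kept its direction, with -1.30 (limma adjusted p = 0.168) at an offset of 50, -3.12 (0.223) from processed signals and -1.69 (0.0625) with no dye term. Mest A_51_P124535 in dcKO gave -1.61 (0.0742) and -3.39 (0.193) at that offset and from processed signals. Directions turned only for uncalled values. With an offset of 50, H19 gave 0.017 in dcKO minus Sox4 cKO, and from processed signals it gave 0.040 in Sox4 cKO. With median centring, dcKO minus Sox4 cKO gave -0.071 for Plagl1 A_52_P532456 and -0.23 for Igf2r. Leaving out 1 array gave ranges that crossed 0. In Sox4 cKO these were -0.072 to 0.87 for Plagl1 A_52_P532456, -0.48 to 0.34 for H19 and -1.09 to 0.39 for Mest A_55_P2090025, in dcKO -0.26 to 0.092 for H19, and in dcKO minus Sox4 cKO -0.16 to 0.79 for Plagl1 A_52_P532456, -0.42 to 0.39 for H19 and -0.024 to 0.70 for Igf2r. The cause of these changes was not tested. Over the fold changes tested, 348 of the recomputed values kept direction and side of the threshold, 20 lost it, 6 gained it and 13 turned. With the main settings only 3 dcKO values and 1 difference were called. Most values that kept their side were thus uncalled ones that stayed uncalled, and only the called ones could lose a call. The alternative with mean spot signals was not run, since the columns used here hold median signals, and a fit on the arrays of a single genotype leaves no residual degrees of freedom. Dim probes limit Igf2, Peg10, Dlk1, Grb10 and Peg3, whose signals lay near background. The Plagl1 probes A_55_P1961965 and A_55_P2153251 were dim as well.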
